A study of Homo sapiens with 36 samples.

Results

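Clustered enhancers of BEAS-2B (B2B) cells are long stretches of distal chromatin that carry many acetylated sites close together. They were defined as B2B H3K27ac peaks on chromosomes 1 to 12 that lay more than 1 kb from every start site in GENCODE release 44, stitched wherever the gap between neighbours was at most 12.5 kb and kept when 5 or more peaks were joined. The members were thus chosen by the measured H3K27ac values of B2B, which serve here as a description only. Of 24654 B2B H3K27ac peaks on these chromosomes, 10945 (44.4%) were distal. They formed 4746 stitched units, and 444 of these (9.36%) were clustered enhancers. The 444 clusters held 4175 distal peaks (38.1%), and the other 6770 peaks were spread over 4302 units of 1 to 4 peaks.

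Chromatin immunoprecipitation and sequencing (ChIP-seq) was carried out in B2B, a non-cancerous line of bronchial epithelial cells, and in A549, a line of lung adenocarcinoma cells. Both lines were grown in the same medium with serum, and neither was treated or edited, so the groups differ by cell line and by antibody only. In both lines the antibodies were against H3K27ac, H3K4me3, pol II, Med1, Jun, JunB and JunD, and in B2B also against CTCF and Rad21. Each of the 16 peak lists came from 2 merged replicates, so no value below has a replicate error, and each cell type is represented by 1 established line. On chromosomes 1 to 12 the lists held from 6206 peaks (B2B JunD) to 42595 peaks (B2B CTCF). H3K4me3 lay within 1 kb of a start site of 5 of 6 epithelial markers in both lines (CDH1, EPCAM, KRT7, KRT8 and KRT18). The same was true of 5 of 7 mesenchymal markers in A549 and 6 of 7 in B2B. Of 5 basal airway markers, 3 were marked in A549 (TP63, NGFR and SOX2) and none in B2B. The basal keratin genes KRT5 and KRT14 were marked in neither line. Of 7 alveolar type 2 and secretory airway markers, 3 were marked in A549 (SFTPC, NKX2-1 and MUC5AC) and 1 in B2B (NKX2-1).

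Acetylation of lysine 27 on histone H3 marks active enhancers and promoters. Mediator, of which Med1 is a subunit, bridges enhancer-bound factors to RNA polymerase II, and stretches rich in both acetylation and Mediator are often found near genes that define a cell's identity. Rad21 is a subunit of cohesin, the ring complex that holds DNA loops together, and CTCF is the factor that positions many of those loops. Jun, JunB and JunD belong to the AP-1 family, dimers that recognise the sequence TGAGTCA or its reverse complement TGACTCA and that respond to growth signals.

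Sites with this AP-1 sequence are shown first, because Jun was the factor present in most clusters. Clusters are named by the nearest protein-coding start site. In each of 4 clusters the strongest B2B Jun peak whose central 100 bases held the sequence was taken. The 100 bases around its summit are given from the hg38 reference on the plus strand, 5′ to 3′, with AP-1 matches in capitals. The clusters include those with the most peaks (SHB) and the most Med1 peaks (FRMD8). KLF14 is the largest with every peak acetylated in A549, and FBLN2 the largest with no A549 H3K27ac peak anywhere in its span.
SHB (chr9:37953806-37953905): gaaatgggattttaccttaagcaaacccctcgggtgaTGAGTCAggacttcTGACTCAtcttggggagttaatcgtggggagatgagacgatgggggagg
FRMD8 (chr11:65428352-65428451): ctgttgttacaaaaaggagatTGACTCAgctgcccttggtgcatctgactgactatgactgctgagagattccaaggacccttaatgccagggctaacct
KLF14 (chr7:130912299-130912398): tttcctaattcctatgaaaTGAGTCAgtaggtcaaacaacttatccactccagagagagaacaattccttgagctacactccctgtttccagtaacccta
FBLN2 (chr3:13543384-13543483): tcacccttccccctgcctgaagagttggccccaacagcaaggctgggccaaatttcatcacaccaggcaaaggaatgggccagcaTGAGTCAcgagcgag
The site at SHB held 2 matches, and the other 3 sites held 1. A B2B H3K27ac peak overlapped the sites at SHB and FBLN2 but not those at FRMD8 and KLF14. All 4 sites overlapped an A549 Jun peak, including the one at FBLN2, where A549 had no H3K27ac peak. The exact sequence was not common among the Jun peaks of these clusters, with 6 of 20 B2B Jun peaks at SHB, 2 of 9 at KLF14, 1 of 8 at FRMD8 and 1 of 4 at FBLN2.

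The strongest acetylated points of the clusters did not hold it. The 200 bases around the summit of the highest B2B H3K27ac peak are shown for the largest cluster and for the pair that differ most in A549, from the same strand and build.
SHB (chr9:37944763-37944962): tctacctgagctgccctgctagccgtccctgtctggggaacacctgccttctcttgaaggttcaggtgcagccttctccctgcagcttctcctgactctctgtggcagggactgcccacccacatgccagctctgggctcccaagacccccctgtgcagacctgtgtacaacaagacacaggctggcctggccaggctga
FBLN2 (chr3:13538402-13538601): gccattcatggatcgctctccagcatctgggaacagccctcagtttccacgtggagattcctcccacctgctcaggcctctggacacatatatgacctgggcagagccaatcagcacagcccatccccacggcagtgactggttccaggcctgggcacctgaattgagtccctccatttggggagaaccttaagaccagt
KLF14 (chr7:130887906-130888105): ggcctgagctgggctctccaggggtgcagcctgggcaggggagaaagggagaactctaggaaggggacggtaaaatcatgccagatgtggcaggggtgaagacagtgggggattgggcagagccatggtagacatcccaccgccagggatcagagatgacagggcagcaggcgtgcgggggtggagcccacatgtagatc
Their fold enrichments over the local background of the peak caller were 20.8 (SHB), 15.1 (FBLN2) and 18.3 (KLF14). No AP-1 match was found in these windows, nor in that of FRMD8. Of these 3 windows, only that of KLF14 overlapped an A549 H3K27ac peak.

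**Figure D1:**
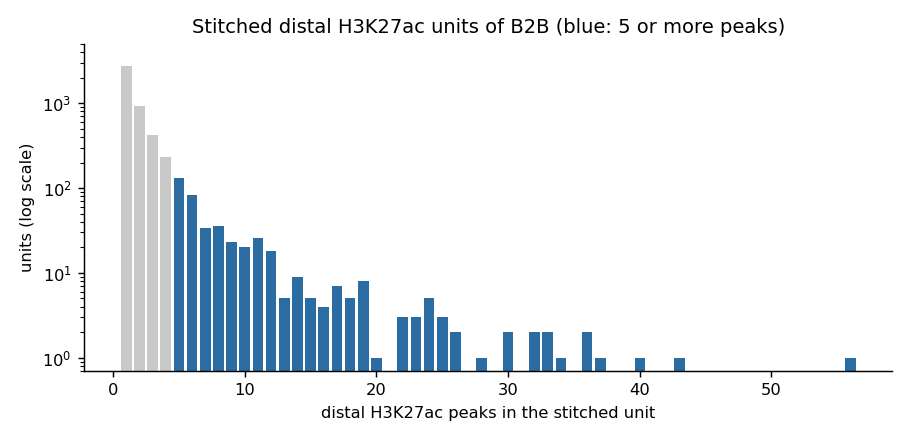
Stitched units of distal B2B H3K27ac peaks by the number of peaks they hold, with the number of units on a log scale. Blue bars are the 444 clusters of 5 or more peaks and grey bars the 4302 smaller units, and the counts fall from 2725 units of 1 peak to a single unit of 56 peaks.

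A typical cluster held 7 peaks (median, range 5 to 56) over 17.4 kb (range 2.95 to 115 kb). There were 138 clusters of 10 or more peaks and 31 of 20 or more. All spans together came to 10.2 Mb, of which the peaks themselves covered 19.1%. Neighbouring peaks were close: the median gap was 764 bp, and 2083 of 3731 gaps (55.8%) were under 1 kb, so that several peaks of a cluster often belong to one acetylated stretch. At the edge of the rule there were 131 clusters of exactly 5 peaks and 232 units of 4. Med1 lay on 27.3% of peaks in units of 5 and on 26.8% in units of 4, and A549 H3K27ac on 35.9% and 37.5%, and these values are given with no test.

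Cluster peaks were wider than other distal peaks (median 339 against 286 bp) and their fold enrichment was close to that of the others (median 5.19 against 5.41). Clusters were spread over all 12 chromosomes, from 12 clusters on chromosome 4 to 80 on chromosome 1. Chromosome 9 had the highest share of its distal peaks in clusters (44.8%) and chromosome 4 the lowest (27.6%). Cluster summits lay mostly in introns (73.6%), with 7.14% in exons and 19.3% between genes. Among other distal summits, 64.0% were intronic and 29.1% intergenic. A protein-coding gene overlapped 355 of the 444 clusters (80.0%), 173 clusters held a protein-coding start site inside their span, and 39 were more than 50 kb from one.

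The largest cluster, at chr9:37938191-38049560, had 56 peaks. It overlapped SHB, which encodes an SH2-domain adaptor protein, and lay 19.7 kb from the nearest SHB start site. It was followed by ZMIZ1, a transcriptional coregulator, with 43 peaks (chr10:79127549-79195515), and RXRA, the retinoid X receptor, with 40 (chr9:134331729-134435625). AHDC1 had 37 peaks, and HPCAL1 and TTC7A had 36 each. AFAP1, an actin filament-associated protein, had 34 peaks over the longest span of all, 115 kb (chr4:7826220-7941550). NIBAN2 had 33, and SKI, a repressor of TGF-beta signalling, had 32, as did the next in order, NEK6. Of the clusters named up to SKI, none was without H3K27ac in A549, and the overlapped peaks ranged from 7 of 36 (HPCAL1) to 34 of 43 (ZMIZ1).

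Med1 was found in most clusters but on about 1 in 4 of their peaks, and this share was close to that of all distal peaks. A B2B Med1 peak lay inside 394 of 444 clusters (88.7%, Wilson 95% interval 85.5 to 91.4%), with a median of 3 and up to 25 peaks in a cluster. By peak, 1107 of 4175 (26.5%) overlapped Med1, against 25.6% of all distal peaks and 25.02% of those outside clusters. The difference from the other peaks was 1.49 percentage points (Newcombe 95% interval −0.19 to 3.19), which does not exclude 0. These intervals cover counting error only and treat neighbouring peaks as independent, which they are not, so the direction was also counted by chromosome, where Med1 was more frequent in clusters on 9 of 12.

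The share of Med1 depended on the strength of the acetylated peak. Among peaks in the highest tertile (1 of 3 equal groups) of fold enrichment, Med1 lay on 50.8% of cluster peaks and 36.9% of others, a difference of 13.9 points (10.6 to 17.2). Among the lowest tertile it lay on 10.1% of cluster peaks and 16.9% of others, a difference of −6.79 points (−8.97 to −4.55). Strong peaks thus carried Med1 more often inside clusters than elsewhere, and weak ones less often. Within every tertile of width the difference was negative. Med1 lay on 11.2% of cluster peaks and 11.9% of others in the narrowest tertile (−0.73 points, −2.88 to 1.56). The shares were 19.1% and 20.9% in the middle (−1.80 points, −4.46 to 0.96) and 42.0% and 47.7% in the widest (−5.71 points, −8.93 to −2.48). The lowest and highest tertiles were added after the values had been seen.

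The number of Med1 peaks differed widely between clusters. FRMD8 had the most, with 25 Med1 peaks over the whole span of 36.3 kb at chr11:65412350-65448604. The cluster was formed by 10 distal H3K27ac peaks and lay 18.1 kb from the FRMD8 start site. AFAP1 had 21 and RASA4B, a Ras GTPase-activating protein gene with near-identical copies nearby that could share its reads, 19. A cluster of 18 peaks 29.4 kb from AMOTL2, a regulator of the Hippo pathway, had 17. In A549 the Med1 peaks in the same spans numbered 11 at FRMD8, 2 at AFAP1, 3 at RASA4B and 2 at AMOTL2, each below the B2B count for which the clusters were chosen. KLF14 stood the other way, with 7 Med1 peaks in B2B and 26 in A549. These are counts over whole spans and not shares of distal peaks. The FRMD8 span also held 4 H3K4me3 and 4 pol II peaks in B2B, and 15 and 13 in A549. Its name takes no account of start sites of non-coding genes, so its Med1 peaks are not assigned to FRMD8.

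**Figure D2:**
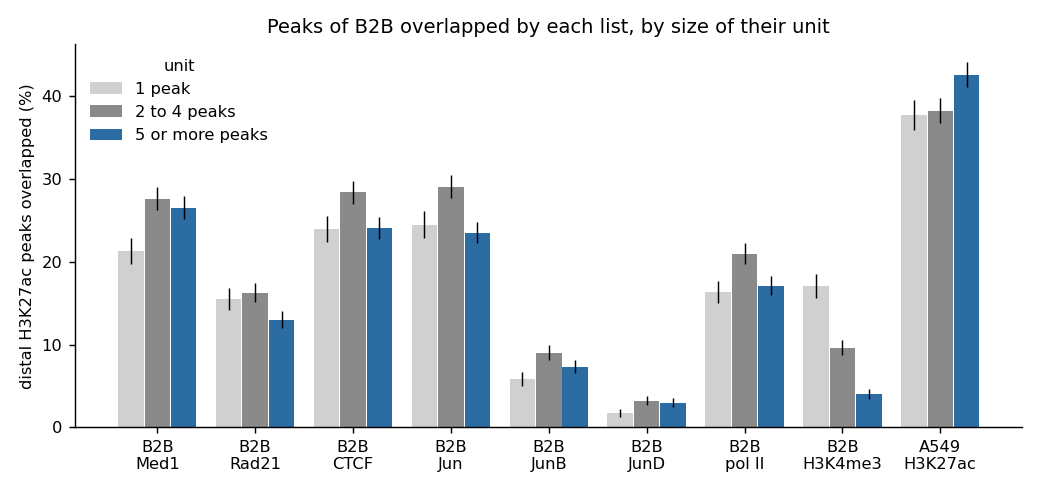
Share of distal B2B H3K27ac peaks overlapped by the B2B lists and by A549 H3K27ac, in percent, for units of 1 peak, 2 to 4 peaks and 5 or more peaks (the clusters), with Wilson 95% intervals as bars. B2B H3K4me3 falls with unit size, from 17.0% in single peaks to 3.98% in clusters, while B2B Med1, Jun and CTCF are highest in units of 2 to 4.

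Rad21 was less frequent in clusters than at other distal peaks. It lay on 13.01% of cluster peaks, 15.9% of the others and 14.8% of all, a difference of −2.92 points (−4.25 to −1.56), lower on 9 of 12 chromosomes. When the Rad21 summit had to lie in the acetylated peak, the interval reached 0 (−1.04 points, −2.17 to 0.12). In the highest tertile of fold enrichment the direction was the opposite, with 19.6% against 14.5% (difference 5.10 points, 2.57 to 7.70). At the level of whole clusters, 334 of 444 (75.2%) held at least 1 Rad21 peak. Among those with many, PLEC, which encodes the cytolinker plectin, had 16, TMEM120B 15, CXXC5 14 and KRT80 11. CTCF lay on 24.0% of cluster peaks against 25.6% of all distal peaks, a difference of −2.55 points from the others (−4.21 to −0.87), lower on 7 of 12 chromosomes. AFAP1 was rich in CTCF (24 peaks) but held 7 Rad21 peaks, whereas PLEC held 4 CTCF and 16 Rad21 peaks.

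Among the Jun family, Jun was by far the most widespread in B2B clusters. Jun lay inside 412 of 444 clusters (92.8%), JunB inside 265 (59.7%) and JunD inside 193 (43.5%). Counted by peak, Jun overlapped 980 of 4175 (23.5%), JunB 304 (7.28%) and JunD 124 (2.97%). Over all distal peaks the shares were 25.8% for Jun, 7.55% for JunB and 2.75% for JunD. Only Jun differed from the other distal peaks, by −3.75 points (−5.41 to −2.07), lower on 10 of 12 chromosomes, although against single-peak units alone the interval reached 0 (−1.004 points, −3.08 to 1.05). The differences for JunB (−0.43 points, −1.43 to 0.60) and JunD (0.36 points, −0.27 to 1.02) included 0. That for JunB was past 0 upward when its summit had to lie in the peak (1.05 points, 0.41 to 1.73) and against single-peak units (1.48 points, 0.28 to 2.65), and past 0 downward in the narrowest tertile (−2.08 points, −3.35 to −0.66). JunB and JunD sat almost entirely on Jun: the 3 lists together covered 982 cluster peaks, 2 more than Jun alone, and over all distal peaks they covered 25.8%.

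The direction for Jun differed between overlap and summit. When the Jun summit itself had to fall inside the acetylated peak, clusters were higher than other distal peaks by 2.26 points (1.25 to 3.30). Cluster peaks were wider, and the part of width in this was not tested. By overlap, the difference was −8.32 points (−10.6 to −5.88) in the narrowest tertile of width. It was −8.96 points (−11.7 to −6.11) in the middle tertile and −2.17 points (−5.29 to 0.96) in the widest. Inside the spans, 894 of 1495 B2B Jun peaks (59.8%) touched a peak of the cluster and 601 lay in the gaps between them. For Med1 the corresponding numbers were 1077 of 1589 (67.8%), for Rad21 545 of 927 (58.8%) and for JunD 117 of 285 (41.1%). Clusters with many Jun-family regions were SHB with 20, AFAP1 with 16, LOXL2, a collagen-crosslinking enzyme, with 14, and GALNT2, an enzyme of O-glycosylation, with 13.

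The AP-1 sequence marked Jun summits and not acetylated summits. In clusters, 371 of 894 B2B Jun peaks that touched a cluster peak (41.5%) held TGAGTCA or its reverse complement within 50 bases of the summit, close to the 39.3% of all B2B Jun peaks on these chromosomes. For JunB the share was 62.5% (170 of 272) and for JunD 69.2% (81 of 117), so the sequence was most frequent where the less abundant members bound. Around the H3K27ac summits, a window of 200 bases held it in 163 of 4175 cluster peaks (3.90%), 3.06% of other distal peaks and 3.38% of all. The difference was 0.85 points (0.15 to 1.59), and its interval reached 0 in 11 of 15 other settings. Windows of the same length 2 kb to either side held it in 4.32% for clusters and 3.59% for the others, which is above the share at the summits in both. Cluster summits were richer in G and C than these flanks (59.7% against 51.3%). The TEAD sequence GGAATG, searched on both strands, lay in 10.5% of cluster windows, 8.73% of other summit windows and 11.9% of cluster flanks.

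H3K4me3, the mark of promoters, was less frequent in clusters than at other distal peaks. B2B H3K4me3 lay on 166 of 4175 cluster peaks (3.98%), against 12.6% of other distal peaks and 9.32% of all, a difference of −8.64 points (−9.62 to −7.64) with the same direction on all 12 chromosomes. The rule leaves out peaks within 1 kb of an annotated start site in both groups. The part of promoter H3K4me3 that reaches further than this was not tested. Pol II lay on 17.1% of cluster peaks and 18.3% of all distal peaks, a difference of −1.93 points from the others (−3.39 to −0.44), lower on 10 of 12 chromosomes. Over its whole span of 115 kb, which holds a protein-coding start site, AFAP1 had 32 pol II peaks, 9 H3K4me3 peaks and 21 Med1 peaks in B2B. In A549 it had 4, 3 and 2, and these counts are not shares of distal peaks.

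In A549 the state of the clusters ranged from fully acetylated to bare. An A549 H3K27ac peak overlapped 1777 of 4175 cluster peaks (42.6%), against 39.7% of all distal B2B peaks and 38.01% of the others. The difference was 4.56 points (2.67 to 6.45), higher in clusters on 8 of 12 chromosomes. Its interval included 0 when only protein-coding start sites were used (0.69 points, −1.09 to 2.47) and in each tertile of peak width: 27.1% against 27.2% in the narrowest tertile, 38.1% against 36.0% in the middle and 56.0% against 55.0% in the widest. The direction followed the strength of the peak. In the strongest tertile 53.2% of cluster peaks and 39.6% of others were acetylated in A549 (13.5 points, 10.2 to 16.8), and in the weakest the order turned, with 36.2% against 40.5% (−4.38 points, −7.56 to −1.17).

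By cluster, the median share of peaks with A549 H3K27ac was 40%. In 85 of 444 clusters (19.1%, 15.8 to 23.1%) no A549 H3K27ac peak fell anywhere in the span, in 39 (8.78%, 6.49 to 11.8%) every peak was overlapped, and 320 lay between. Clusters with none were small (median 5 peaks, at most 16), those with all had a median of 6 and at most 20, and those between had 8. In 10 of the 320 an A549 peak lay in the span but on no peak of the cluster. Applying the same rule to A549 gave 512 clusters. Of the B2B clusters, 185 (41.7%) overlapped one of these, and 189 of the A549 clusters (36.9%) overlapped a B2B cluster. Absence from a list means that no peak passed the authors' threshold in the pooled reads, and gains or losses of DNA copies in either line were not tested.

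**Figure D3:**
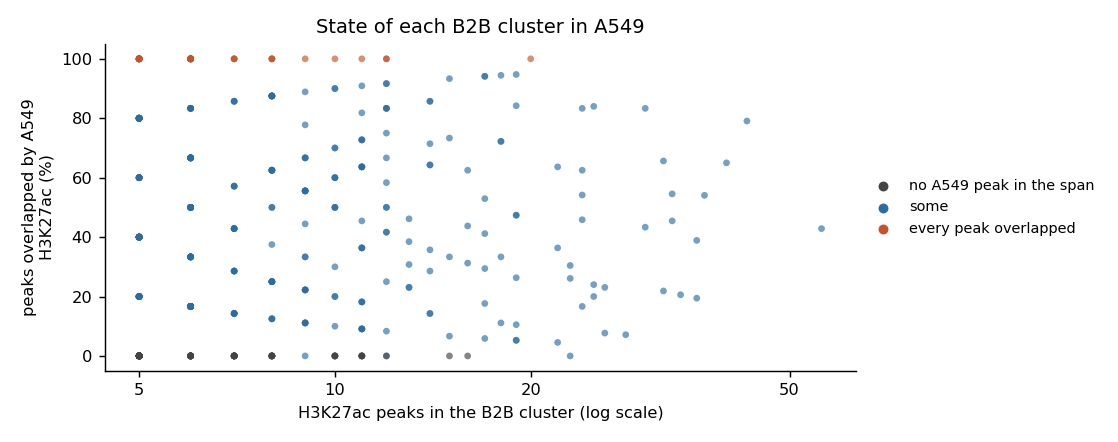
Each point is a B2B cluster, placed by its number of H3K27ac peaks (log scale) and the percentage of those peaks overlapped by an A549 H3K27ac peak. The 85 clusters without an A549 peak in the span (dark) have at most 16 peaks and the 39 fully overlapped ones (orange) at most 20. All larger clusters are in the class between (blue). That class includes 10 clusters at 0%, with an A549 peak in the span but on none of their peaks, COL5A1 with 23 peaks among them.

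The clusters without A549 acetylation had less Med1 and Rad21 in B2B than the rest, while no difference in B2B Jun was detectable. In these 85 clusters, B2B Jun lay on 25.3% of 553 peaks, against 23.2% of the 3622 peaks of the remaining clusters (difference 2.12 points, −1.59 to 6.14). B2B Med1 lay on 21.5% against 27.3% (−5.76 points, −9.30 to −1.87), and Rad21 on 9.22% against 13.6% (−4.36 points, −6.79 to −1.45). H3K4me3 of B2B lay on 1.63% against 4.33% (−2.71 points, −3.76 to −1.14). JunB, JunD, CTCF and pol II of B2B each differed by an amount whose interval included 0. The peaks of these clusters were narrower in B2B, with a median of 301 bp against 358 bp in those kept whole and 344 bp in those between. Their median −log10 q was 13.3 against 19.3 and 13.4, while the median fold enrichments were 5.64, 5.65 and 5.11. The part of peak width in the Med1, Rad21 and H3K4me3 differences was not tested.

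In A549 the same 85 clusters were nearly empty of the other marks. A549 Med1 lay on 0 of the 553 peaks, which allows a share of up to 0.542%, and pol II, H3K4me3 and JunD on 1 peak each. Jun lay on 17 peaks (3.07%) and JunB on 10 (1.81%). Over whole spans, 30 of the 85 clusters (35.3%) held at least 1 A549 Jun-family region. In the 39 fully acetylated clusters, by contrast, all held pol II and a Jun-family region in A549 and 37 held Med1. Their peaks carried A549 pol II on 60.4%, Med1 on 36.9%, JunB on 31.3%, Jun on 30.2% and JunD on 11.9%. A549 H3K27ac set these classes, and the A549 lists were made from the same line, so the contrast is given without a test.

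**Figure D4:**
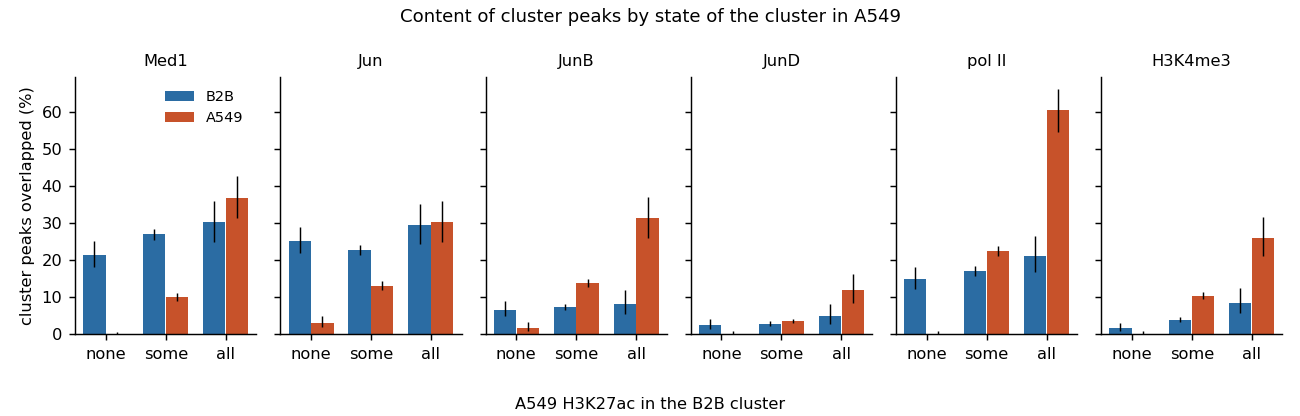
Percentage of cluster peaks overlapped by each list in B2B (blue) and A549 (orange), with Wilson 95% intervals as bars. The classes are clusters with no A549 H3K27ac peak in the span (none, 85 clusters), those between (some, 320) and those with every peak overlapped (all, 39). B2B Jun lies between 22.7% and 29.5% in the 3 classes, whereas A549 pol II goes from 0.181% in the first class to 60.4% in the last.

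The same peaks can be read in both lines. They were chosen by acetylation in B2B alone, which favours the B2B lists, so the values of the lines are set side by side as a description with no test. Med1 lay on 26.5% of cluster peaks in B2B and 10.5% in A549, a difference of −16.0 points. Over all distal peaks the A549 share was 11.4%. Both Med1 lists have similar lengths on these chromosomes (18546 and 17994 peaks). Of 1107 cluster peaks with Med1 in B2B, 308 had it in A549 too, and 129 had it in A549 only.

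Jun was the more frequent in B2B and JunB in A549 at these B2B peaks. Jun lay on 23.5% in B2B and 12.9% in A549, and JunB on 7.28% and 13.4%. JunD lay on 2.97% and 3.69%. In A549 the 3 members were therefore nearer to each other, with JunB and Jun on similar numbers of cluster peaks (559 and 540), while in B2B Jun stood alone on most. Over all distal peaks the A549 shares were 13.8% for Jun, 13.7% for JunB and 3.86% for JunD, and 16.6% for any of them. The lists differ in length in the same directions, with 32978 Jun peaks in B2B and 24939 in A549, and 6318 JunB peaks in B2B and 19926 in A549, and the part of antibody yield or depth in the differences was not tested. A549 pol II lay on 21.99% of cluster peaks against 23% of all distal peaks, and A549 H3K4me3 on 10.1% against 15.9%.

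B2B peaks that carried a factor were more often acetylated in A549. For the Jun family, CTCF and pol II this difference was larger in clusters than outside them. With B2B Jun, 564 of 980 cluster peaks (57.6%) had A549 H3K27ac, and without it 37.97%, a difference of 19.6 points. Outside clusters the same difference was 7.35 points, so that it was larger in clusters by 12.2 points (7.84 to 16.6). JunB gave 71.4% against 40.3% in clusters and JunD 77.4% against 41.5%, larger than outside clusters by 15.4 points (8.46 to 22.3) and 16.9 points (6.39 to 27.5). For Med1 the shares were 62.2% with and 35.5% without it, and the interval of its change relative to other peaks included 0 (0.62 points, −3.64 to 4.89). For Rad21 they were 71.6% and 38.2%, a difference that changed by −5.67 points (−10.7 to −0.60) relative to that outside clusters. The change was 5.35 points (0.96 to 9.74) for CTCF and 6.31 points (1.34 to 11.3) for pol II. For B2B H3K4me3 it was −10.2 points (−18.4 to −2.05). Peaks with a factor were not matched for width or strength with those without. These intervals also treat neighbouring peaks as independent, which they are not, so they are too narrow. No direction by chromosome is given for them, and the contrasts were chosen after their values were seen.

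**Figure D5:**
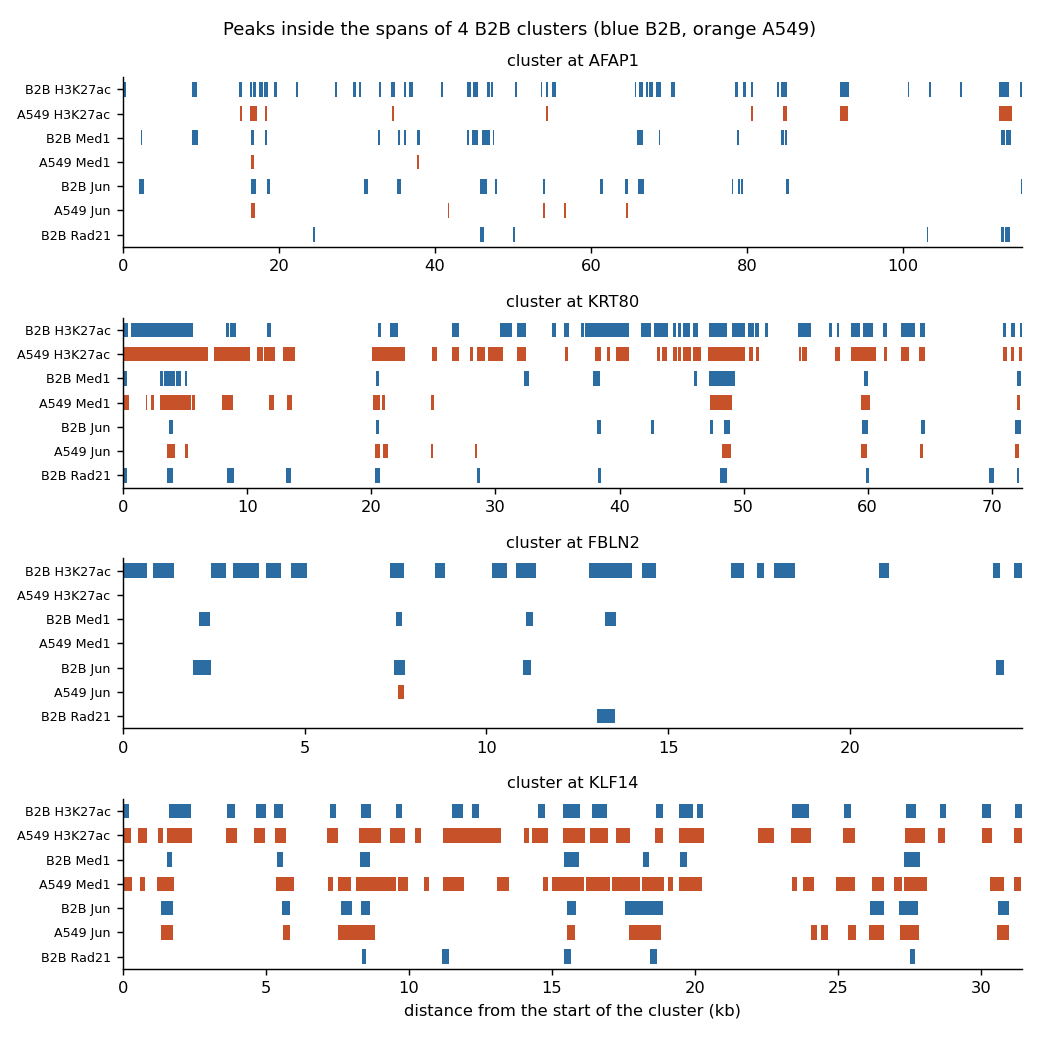
Peaks of 7 lists inside the spans of the clusters at AFAP1, KRT80, FBLN2 and KLF14, by distance from the start of the cluster in kb, with B2B in blue, A549 in orange and the narrowest peaks widened to be visible. A549 H3K27ac overlaps 7 of 34 distal B2B peaks at AFAP1, 25 of 30 at KRT80, 0 of 16 at FBLN2 and 20 of 20 at KLF14.

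Single clusters show these states. At AFAP1 the whole span held 42 H3K27ac peaks of B2B, of which 34 were distal, and 21 Med1 and 16 Jun peaks, and A549 had 9, 2 and 6. At FBLN2, which encodes the matrix protein fibulin 2 (chr3:13535818-13560567), 18 H3K27ac peaks of B2B (16 of them distal), 4 Med1 and 4 Jun peaks met 1 Jun, 1 JunB and 1 H3K4me3 peak of A549 and no other peak of its lists. The next largest clusters with no A549 H3K27ac peak in the span were those named FAM50B with 15 peaks and KLHL29 with 12. PXDN, a peroxidase that crosslinks collagen, and FANCE had 11 each, a count shared by CPA5, ADAMTS2 and THBS2. The cluster named FANCE lay 24.3 kb from that start site, and the only protein-coding gene it overlapped was PPARD. At FAM50B, A549 had 3 Jun peaks, at PXDN 2 and at FANCE 1.

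Among clusters acetylated throughout in A549, KLF14 (chr7:130885886-130917339) lay 152 kb from its nearest protein-coding start site and overlapped no protein-coding gene. Its span held 26 H3K27ac, 26 Med1 and 20 pol II peaks of A549, against 22 H3K27ac (20 of them distal), 7 Med1 and 9 pol II peaks of B2B. It was followed by PFKP, a phosphofructokinase of glycolysis, and MYOF, a membrane repair protein, with 12 peaks each, and TMEM120B with 11. At KRT80, a keratin gene, 25 of 30 peaks were acetylated in A549, and Med1 peaks numbered 13 in B2B and 14 in A549.

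The genes around the clusters were read from lists for lung epithelium and its signalling, as genes with a start site in or within 50 kb of a cluster. Of 12234 protein-coding genes on these chromosomes, 881 (7.2%) were so placed. Epithelial genes were near clusters in 4 of 18 (KRT7, KRT8, KRT18 and RAB25) and mesenchymal genes in 4 of 24 (COL5A1, LOXL2, SPARC and THBS2). Of 10 lung and endoderm regulators none was. MAPK feedback genes were near clusters in 5 of 14 (DUSP1, DUSP5, DUSP7, DUSP8 and IER3), YAP-TEAD target genes in 5 of 25 (AMOTL2, ARHGEF17, CRIM1, MYOF and NUAK2) and AP-1 subunit genes in 2 of 6 (FOSL1 and FOSL2). Growth receptor genes were near in 3 of 18 (EGFR, EPHA2 and PDGFRB) and TGF-beta pathway genes in 2 of 14 (SKI and ENG). Cell cycle genes were near in 1 of 12 (CCND3), and RUNX, ETS, KLF and NFI factor genes in 1 of 13 (ETS1). None of 15 integrin genes, 9 EGF receptor ligand genes, 19 interleukin, chemokine and NF-kB feedback genes or 16 NRF2 target genes was near one. The lists are small, so the counts describe these genes only, and of 387 oncogenes listed by the study 40 (10.3%) lay within 50 kb.

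Of the clusters near the 4 mesenchymal genes, 3 had no peak acetylated in A549. At SPARC, a secreted matrix glycoprotein, none of 6 peaks was acetylated in A549, and none of 11 was near THBS2, a thrombospondin. At COL5A1, a fibrillar collagen, none of 23 peaks was overlapped. PDGFRB, the receptor of platelet-derived growth factor, is from the growth receptor list. Of its peaks 1 of 5 was overlapped, against 6 of 10 at EGFR and 6 of 6 at EPHA2 of that list. The promoters of SPARC, THBS2, COL5A1 and PDGFRB had a pol II peak in B2B and none in A549, and those of SPARC, THBS2 and PDGFRB had H3K4me3 in B2B only. The marks were not all on the side of B2B, since the THBS2 promoter had H3K27ac in A549 and not in B2B, and that of COL5A1 had H3K4me3 and H3K27ac in both lines. LOXL2, of the same list, kept 8 of 22 peaks and had pol II at its promoter in both lines.

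Several clusters near keratins and growth-signal genes were acetylated in both lines. All 6 peaks of the cluster 13.4 kb from KRT18 and 15.2 kb from KRT8, the keratin pair of simple epithelia, were acetylated in A549, as were all 6 at EPHA2, an ephrin receptor, and all 5 near DUSP5, a phosphatase of MAP kinases. FOSL1, an AP-1 partner of Jun, kept 7 of 8 peaks, FOSL2 6 of 9, and EGFR 6 of 10. The cluster at AMOTL2 itself kept 9 of 10 peaks, but its Med1 peaks numbered 16 in B2B and 2 in A549. ARHGEF17, a guanine nucleotide exchange factor, kept 1 of 22 peaks although pol II marked its promoter in both lines.

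The genes nearest to the clusters had more pol II at their promoters in A549 than in B2B, as genes did in general. Of 397 such genes, 350 (88.2%) had a pol II peak within 1 kb of a start site in A549 and 297 (74.8%) in B2B, a paired difference of 13.4 points (9.40 to 17.3). Over all protein-coding genes the shares were 67.1% and 50.3%, a difference of 16.8 points (16.1 to 17.5), and the A549 pol II list is the longer one (33170 against 16953 peaks). H3K4me3 marked 90.9% of the nearest genes in A549 and 87.9% in B2B, against 73.2% and 62.1% of all genes. Med1 went the other way, with 71.5% in A549 and 88.7% in B2B, a difference of −17.1 points, against 53% and 59.3% of all genes, and for these genes, chosen by their nearness to B2B clusters, it is given with no test.

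The promoters beside clusters without A549 acetylation were mostly marked in both lines. These genes were chosen through the acetylation of both lines, so their values are a description. Of 84 genes nearest to these clusters, 64 had pol II in A549 and 51 in B2B, and 72 had H3K27ac in A549 and 74 in B2B. Pol II was present in B2B only at 5 of them and in A549 only at 18. Med1 was on 42 promoters in A549 and 67 in B2B. For the 38 genes nearest to fully acetylated clusters, Med1 was on 30 promoters in A549 and 31 in B2B.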

How the data were processed

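ChIP-seq peak lists of 2 lines were analysed, 36 samples in 18 groups of 2 replicates, of which the input groups had no list here. Per the labels and methods, the authors aligned reads to hg38 with Bowtie2 2.4.4, merged replicates, and called peaks with MACS2 2.2.7.1, with SAMtools 1.13 also used. The caller's options and control are not given in the sources used here. The authors deposited for each peak a score (10 times −log10 q, floored), a fold enrichment (a ratio to the local background), and a −log10 p and −log10 q. The q-value threshold in the lists was 0.01. Read depth is unknown, so precision is set by the number of peaks counted.

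Chromosomes 1 to 12 were used because every list covers them. Start sites and genes came from GENCODE release 44. Overlap was at least 1 bp. Clusters were named by the nearest protein-coding start site, leaving out genes without a symbol. The clusters named are the 10 with the most peaks, the 5 largest with no A549 H3K27ac and with all peaks acetylated there, and the 5 with the most Med1, Rad21 and Jun-family regions, plus genes of the lists within 50 kb. Some clusters and genes that this rule names are not reported here. Contrasts by A549 class, by factor and by the lowest and highest tertile, and the H3K4me3, CTCF and pol II comparisons at peaks, were chosen after their values were seen. Members and lists were chosen with earlier results of these data known. Shares have Wilson 95% intervals, differences Newcombe intervals, and paired differences Wald intervals. Changes of a difference between clusters and other peaks also have Wald intervals. Sequence was read with pysam 0.24.0. Analysis used Python 3.11.15, NumPy 2.4.6, SciPy 1.17.1, pandas 2.3.3 and Matplotlib 3.10.9. Stitching, overlap and interval functions were tested on simulated data against bedtools.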

Additional observations from a re-analysis of the deposited data

Results flagged for a closer look

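The rule was limited to chromosomes 1 to 12, but the B2B H3K27ac list runs on. On chromosomes 13 to 22 and X it gave 343 further clusters of 5 or more peaks, and these were used in no comparison above. Of their 2864 peaks, Rad21 lay on 15.3%, against 17.7% of the 3942 other distal peaks there (−2.44 points, −4.20 to −0.65), and H3K4me3 on 4.26% against 11.0% (−6.75 points, −7.97 to −5.51). The differences for Rad21 and H3K4me3 had the sign seen on chromosomes 1 to 12. Jun lay on 21.9% against 22.96% (−1.10 points, −3.09 to 0.91), an interval that includes 0, as do those of CTCF (−1.23 points, −3.24 to 0.79) and pol II (−0.29 points, −2.04 to 1.49).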

How the results depend on the processing

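No paired analysis was possible because each list pools the 2 replicates of its group, and for the same reason no replicate could be left out. The choice of tertiles at the lowest and highest level was made after seeing the data. Below, differences are clustered minus other distal peaks in percentage points, and the cause of each change was not tested unless the setting itself gives it. With 4 or more peaks there were 676 clusters and with 8 or more 197, against 340 to 537 under the other settings. Clusters without an A549 peak made up 15.1% at a stitching distance of 25 kb, 24.9% with 4 or more peaks and 9.14% with 8 or more.

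Med1 was the least stable: its sign differed between tertiles of fold enrichment and was negative in every tertile of width. Its difference was past 0 upward with 4 or more peaks (1.84), at a Med1 −log10 q of at least 5 (2.34), against single-peak units (5.27) and in the highest tertile of fold enrichment (13.9). It was negative with protein-coding start sites only (−0.24), 50% reciprocal overlap (−1.52), the lowest (−0.73), middle (−1.80) and highest (−5.71) tertile of widths, and the lowest (−6.79) and middle (−0.37) tertile of fold enrichment. Rad21 turned positive in the highest tertile of fold enrichment (5.10, past 0 upward) and its interval reached 0 for summits in the peak (−1.04) and in the lowest tertile of widths (−1.69).

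Jun turned positive for summits in the peak (2.26, past 0 upward), 50% reciprocal overlap (0.061) and the highest tertile of fold enrichment (1.59), and its interval reached 0 against single-peak units (−1.004) and in the highest tertile of widths (−2.17). JunB turned positive with 4 or more peaks (0.55), protein-coding start sites only (0.47), summits in the peak (1.05), single-peak units (1.48) and the highest tertile of widths (0.12) and fold enrichment (2.34). Of these, summits in the peak and single-peak units were past 0 upward. It was past 0 downward in the middle (−2.07) and lowest (−2.08) tertile of widths and the middle (−1.59) and lowest (−1.01) tertile of fold enrichment. JunD turned negative at 5 kb stitching (−0.31), with 8 or more peaks (−0.083), in the middle tertile of widths (−0.018) and in the middle (−0.038) and lowest (−0.13) tertile of fold enrichment. It was past 0 upward with protein-coding start sites only (0.61), against single-peak units (1.28) and in the highest tertile of fold enrichment (1.63).

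For A549 H3K27ac the interval reached 0 with protein-coding start sites only (0.69), 50% reciprocal overlap (1.04) and the middle (2.09) and highest (1.01) tertile of widths, and the sign turned in the lowest tertile of widths (−0.072) and of fold enrichment (−4.38, past 0 downward). The AP-1 sequence lost its difference at 5 kb stitching (0.34), with 4 (0.64) or 8 (0.75) or more peaks, over 2.5 kb from start sites (0.76), against single-peak units (0.75), with a 100 bp window (0.19) and in the middle tertiles of widths (0.65) and fold enrichment (0.84). It was also lost in the lowest (1.01) and highest (0.96) tertile of widths and the lowest tertile of fold enrichment (0.17). Pol II at the nearest promoters kept its direction and interval above 0 in 9 of 9 alternatives (11.4 to 17.5). Over all protein-coding genes the difference was 16.8, and the A549 pol II list is the longer one. This direction is therefore not particular to genes near clusters. Peak lists limit all of this: a weak signal below the authors' threshold counts as none.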
